A study of Mus musculus with 12 samples.

Results

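The genes described here are 39 genes of the integrated stress response and of the unfolded protein response, taken by symbol from the deposited count table. All 39 stood among the 20529 genes of that table, and all 39 were among the 20486 that passed the filter on low counts. They were kept in 3 groups: 24 genes of the Atf4 arm, 11 genes of the endoplasmic reticulum (ER) chaperone arm, and 4 upstream sensors and stress-activated factors. The rule that picks them by symbol uses no measured value, but the members were chosen with earlier results of these data known.

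In the integrated stress response, kinases such as Perk (Eif2ak3) and Gcn2 (Eif2ak4) phosphorylate the translation initiation factor eIF2, which lowers protein synthesis in general and raises translation of the transcription factor Atf4. Atf4, often paired with a C/EBP protein, turns on genes for amino acid synthesis and uptake, for other transcription factors and for feedback on the response itself. The unfolded protein response of the ER adds Atf6, freed by proteolysis, and Xbp1, activated by splicing, which turn on chaperones and folding enzymes of that compartment. Translation of Atf4, cleavage of Atf6 and splicing of Xbp1 cannot be read from counts per gene.

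RNA-seq libraries of total RNA came from 129S6/SvEvTac mouse embryonic stem cells (mES), grown with serum and LIF, that carried the reporter GFP_5xT71BS and, by the growth protocol, a stably transfected FLAG-Cas9 construct with a blasticidin resistance gene. The 4 groups of 3 libraries were Cas9 control, Cas9 Trim71-/-, Tnrc6a control and Tnrc6a Trim71-/-, where Cas9 or Tnrc6a names the overexpressed construct and control or Trim71-/- the genotype. Trim71 is an RNA-binding protein that silences target mRNAs, and Tnrc6a (GW182) is a partner through which Argonaute proteins silence mRNAs. Replicates were wells of a 24-well plate, so p values measure the spread between wells; the labels give neither the number of Trim71-/- clones nor the promoter of the Tnrc6a construct.

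The libraries held 20758151 to 31552915 counts. Tnrc6a RNA stood at 10.4 ± 0.104 and 11.4 ± 0.770 RPKM (SD, n = 3) in the Cas9 groups. In the Tnrc6a groups it stood at 261 ± 9.39 and 285 ± 9.87, as labelled. RPKM values, as deposited, are reads scaled by gene length and by a normalized library size. Trim71 RNA stood at 32.8 ± 1.52 RPKM in Cas9 control and 29.5 ± 1.52 in Cas9 Trim71-/- libraries (log2 fold change -0.15, adjusted p = 0.00282 by edgeR, with overlapping groups), and at 28.3 ± 1.27 and 25.7 ± 0.977 with Tnrc6a (-0.14, adjusted p = 0.00758 by edgeR, with no overlap). Most of its RNA thus remained in libraries labelled Trim71-/-, and each Trim71-/- result below is that of libraries labelled so. For 9 libraries, another label field on the source of the RNA names other cells (HA-AVI-Tnrc6a, in some with Ago2-/- or Upf1-/-); Ago2 lay between 16.9 and 23.6 RPKM and Upf1 between 34.7 and 52.3 in the group means. The 10 stem cell markers summed to 3039 to 3122 RPKM in Cas9 control, 3092 to 3157 in Cas9 Trim71-/-, 1797 to 1844 in Tnrc6a control and 2215 to 2252 in Tnrc6a Trim71-/- libraries. The 8 primitive endoderm markers summed to 51.5 to 52.7 RPKM in Cas9 control, 14.6 to 15.1 in Cas9 Trim71-/-, 105 to 116 in Tnrc6a control and 26.5 to 29.2 in Tnrc6a Trim71-/- libraries. The 8 markers of 2-cell-like cells, a rare state of these cultures, summed to 9.59 to 10.9, 0.715 to 1.06, 227 to 234 and 81.7 to 87.4 RPKM in the same order. Of 7 fibroblast markers, 4 were in the table, at 3.47 to 7.36 RPKM in sum. None of the markers in the table was at 0. In sum, endoderm and 2-cell-like markers were lower in Trim71-/- and higher in Tnrc6a libraries, the directions of many stress genes below. Their part in those results was not tested. Of the 8 endoderm markers, 6 rose and 1 fell with Tnrc6a in Trim71-/- cells by edgeR (32.0% and 30.9% of all genes). The one that fell was Sox7 (log2 fold change -0.68). Exons of other annotated genes overlap 9 members, from 0.409% of Ppp1r15a to 20.7% of Cebpb, with 15.7% for Hsp90b1, 10.4% for Psph and 10.1% for Ddit3, so their counts may hold reads of those genes. For Ddit3, the overlapping genes include another entry of the count table, annotated with the same name on the same strand. The counts of that entry were not added to those of Ddit3.

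Levels differed widely among the genes. In Cas9 control cells, the ER chaperone arm had a median of 38.1 RPKM, from 4.63 for Herpud1 to 284 for Calr. The Atf4 arm had a median of 11.4 RPKM, from 0.0187 for Slc7a11, the cystine transporter, to 111 for Asns, asparagine synthetase. The sensors lay between 3.03 (Eif2ak3) and 19.1 RPKM (Xbp1), with a median of 6.54. Summed over its 24 genes, the Atf4 arm stood at 662 ± 13.9 RPKM (SD, n = 3) in Cas9 control, 627 ± 9.36 in Cas9 Trim71-/-, 701 ± 10.7 in Tnrc6a control and 653 ± 5.30 in Tnrc6a Trim71-/- libraries. The sums of the ER arm were 1011 ± 24.4, 963 ± 17.5, 1061 ± 20.3 and 1130.0 ± 34.0 RPKM in the same order. Calr, on chromosome 8 (described below), weighs heavily in these ER arm sums. It stood at 284, 344, 300 and 400 RPKM in that order. By edgeR, 6 of 11 ER arm genes were called lower and 3 higher in Trim71-/- libraries with Tnrc6a (19.0% and 20.0% of all genes). In bulk RNA, fewer cells with a transcript and less of it per cell cannot be told apart.

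The arms also differed in the letters of their promoters, searched on both strands in RefSeq windows from 250 bases before to 50 bases after each start (GRCm38.p6). The core of the C/EBP-ATF response element, TGATGNAA, stood in 8 of the 22 Atf4 arm genes that had a window (36.4%), against 2.84% of 12094 genes of the count table with a window. The ER stress element, CCAAT followed by 9 bases of any kind and CCACG, stood in 5 of 9 ER arm genes (55.6%), against 0.182%; it stood in 0 of the 22 Atf4 arm genes. The C/EBP-ATF core stood in 1 of the 9 ER arm genes, Herpud1, which also had the ER stress element II, ATTGG followed by 1 base and CCACG (0.083% of table genes). A core of the Xbp1-bound element, TGACGTGG, was in none of the member windows and in 1.03% of table genes. No window was matched for Slc7a3, Slc7a5, Atf6, Hyou1 and Manf. The arms were listed as genes of the responses to which these elements belong. The shares therefore describe the lists, and no difference between them was tested. A match is a string of letters and shows no binding.

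Windows are shown for Atf4 and Hspa5, the leading factor and the leading chaperone, for the 3 members of the Atf4 arm and of the ER arm with the highest mean RPKM among those with a match and a call in any comparison, and for Herpud1, which was added after its matches were seen. Each runs 5′ to 3′ on the gene's strand, with the matched element in capitals. Since both strands were searched, some capitals read as the reverse complement of the element.
Atf4, chr15:80254934-80255233, plus strand: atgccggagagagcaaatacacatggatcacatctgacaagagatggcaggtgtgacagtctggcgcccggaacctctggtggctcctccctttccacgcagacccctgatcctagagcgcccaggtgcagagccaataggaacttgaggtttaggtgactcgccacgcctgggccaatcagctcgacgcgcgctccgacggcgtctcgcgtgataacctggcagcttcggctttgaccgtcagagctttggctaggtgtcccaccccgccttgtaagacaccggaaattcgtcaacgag
Atf3, chr1:191183284-191183583, minus strand: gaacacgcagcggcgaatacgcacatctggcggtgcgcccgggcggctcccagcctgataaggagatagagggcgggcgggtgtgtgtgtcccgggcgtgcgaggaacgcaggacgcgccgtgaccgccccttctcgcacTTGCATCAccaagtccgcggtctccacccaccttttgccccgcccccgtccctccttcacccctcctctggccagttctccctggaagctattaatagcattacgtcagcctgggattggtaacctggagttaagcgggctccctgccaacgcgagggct
Trib3, chr2:152344011-152344310, minus strand: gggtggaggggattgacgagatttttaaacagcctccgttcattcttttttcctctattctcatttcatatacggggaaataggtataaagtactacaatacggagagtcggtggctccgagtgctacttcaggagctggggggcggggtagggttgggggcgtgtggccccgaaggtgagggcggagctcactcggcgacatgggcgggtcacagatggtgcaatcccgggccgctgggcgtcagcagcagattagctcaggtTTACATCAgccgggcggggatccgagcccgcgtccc
Asns, chr6:7693160-7693459, minus strand: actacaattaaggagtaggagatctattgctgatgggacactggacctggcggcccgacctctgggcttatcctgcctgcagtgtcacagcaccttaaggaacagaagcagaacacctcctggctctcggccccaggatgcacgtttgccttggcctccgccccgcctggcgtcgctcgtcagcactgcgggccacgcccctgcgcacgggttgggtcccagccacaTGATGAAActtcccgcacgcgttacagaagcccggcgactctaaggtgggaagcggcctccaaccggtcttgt
Hspa5, chr2:34771840-34772139, plus strand: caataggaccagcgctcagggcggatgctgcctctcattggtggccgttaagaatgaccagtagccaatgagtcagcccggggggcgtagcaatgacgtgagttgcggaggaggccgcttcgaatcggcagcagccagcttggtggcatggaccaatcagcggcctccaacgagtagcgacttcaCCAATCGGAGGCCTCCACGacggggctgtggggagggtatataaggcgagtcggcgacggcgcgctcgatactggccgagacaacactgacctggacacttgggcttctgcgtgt
Hsp90b1, chr10:86705395-86705694, minus strand: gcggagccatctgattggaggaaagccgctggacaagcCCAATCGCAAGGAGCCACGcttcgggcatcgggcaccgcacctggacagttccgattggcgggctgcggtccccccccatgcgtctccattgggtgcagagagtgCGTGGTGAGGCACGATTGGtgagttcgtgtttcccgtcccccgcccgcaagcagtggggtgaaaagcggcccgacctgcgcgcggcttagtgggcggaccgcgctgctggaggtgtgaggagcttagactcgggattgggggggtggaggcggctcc
Calr, chr8:84846882-84847181, minus strand: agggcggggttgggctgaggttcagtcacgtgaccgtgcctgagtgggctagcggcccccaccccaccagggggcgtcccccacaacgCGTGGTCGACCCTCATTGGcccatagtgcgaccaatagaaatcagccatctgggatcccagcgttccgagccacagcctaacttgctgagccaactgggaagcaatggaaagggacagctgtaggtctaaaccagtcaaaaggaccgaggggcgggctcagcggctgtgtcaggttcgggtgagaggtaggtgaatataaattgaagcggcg
Herpud1, chr8:94386179-94386478, plus strand: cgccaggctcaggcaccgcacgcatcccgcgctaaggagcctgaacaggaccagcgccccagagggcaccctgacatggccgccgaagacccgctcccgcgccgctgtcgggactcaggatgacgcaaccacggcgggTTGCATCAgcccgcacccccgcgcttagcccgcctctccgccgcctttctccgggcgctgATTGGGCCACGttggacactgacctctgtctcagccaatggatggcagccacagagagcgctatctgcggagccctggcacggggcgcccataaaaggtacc

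The first comparison set libraries labelled Trim71-/- against control libraries with Cas9. Most ER arm genes and much of the Atf4 arm were lower in Trim71-/- libraries, led by Atf3, Atf4 and Dnajb9, while 8 members were higher, led by Herpud1. By edgeR's quasi-likelihood test (adjusted p under 0.05 over all genes), 21 of 39 members fell and 8 rose (3 of the 8 on chromosome 8, described below), against 19.1% lower and 17.1% higher over all genes tested (36.1% in either direction). In the ER arm, 9 of 11 genes fell and 2 rose. In the Atf4 arm, 10 of 24 fell and 6 rose, and of the sensors 2 of 4 fell. The median log2 fold change was -0.28 in the ER arm and -0.16 in the Atf4 arm, against -0.01 over all genes. Differences were small: 2 members passed 1.5-fold, Atf3 lower and Herpud1 higher, against 6.66% lower and 5.28% higher of all genes at that size.

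With Tnrc6a, which shares no library with the comparison above, 19 members fell and 7 rose in Trim71-/- libraries (3 of the 7 on chromosome 8), against 19.0% lower and 20.0% higher of all genes (39.1% in either direction). The 7 became 4 without Tnrc6a control replicate 1, without Tnrc6a Trim71-/- replicate 2 or by DESeq2, and all-gene calls went from 4104 higher and 3901 lower to 3577 and 4413 with relative log expression factors. In the ER arm, 6 of 11 genes fell and 3 rose. In the Atf4 arm, 11 of 24 fell and 4 rose, and 2 of 4 sensors fell. The 17 genes that fell in both comparisons were 17 of the 21 and 17 of the 19, and they included Atf4, Ddit4, Asns, Xbp1, Dnajb9, Sdf2l1 and Manf. Those that rose in both were Atf5, Slc7a5, Slc3a2, Calr and Herpud1, 5 of the 8 and 5 of the 7. The share of all genes that repeated their call was not counted, so the repeat is not shown to be particular to the members. At 1.5-fold or more, 1 member rose, Herpud1, and 0 fell, against 6.12% and 6.46% of all genes. The median was -0.19 in the ER arm and -0.16 in the Atf4 arm, against 0.00 over all genes.

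Tnrc6a against Cas9 gave larger differences that split the Atf4 arm by role. Its transcription factors and stress effectors were higher with Tnrc6a, and its serine, one-carbon and proline enzymes and its transporters were mostly lower. In control cells, 20 members rose and 10 fell, against 30.4% higher and 33.1% lower of all genes (63.5% in either direction). The all-gene balance there depended on the normalization. With relative log expression factors, calls went from 6230 higher and 6777 lower to 6759 and 6153, and 21 members rose and 9 fell. In the main fit of control cells, all 7 transcription factors and all 5 effectors rose. By contrast, 4 of 5 serine and one-carbon enzymes, 1 of 3 asparagine and proline enzymes and 3 of 4 transporters fell. In the ER arm, 6 of 11 genes rose and 1 fell. In Trim71-/- cells, 23 members rose and 10 fell, against 32.0% higher and 30.9% lower (62.9% in either direction). There, 7 of 7 transcription factors and 4 of 5 effectors rose, 5 of 5 serine and one-carbon enzymes fell, and 9 of 11 ER arm genes rose with none lower. Of the genes that rose, 19 were shared, 19 of the 20 and 19 of the 23, and of those that fell 8 of the 10 in each. For all genes this repeat was not counted here either. At 1.5-fold or more, 10 members were higher and 2 lower in control cells, against 17.3% and 11.0% of all genes. In Trim71-/- cells 9 were higher and 3 lower, against 18.1% and 10.2%.

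**Figure D1:**
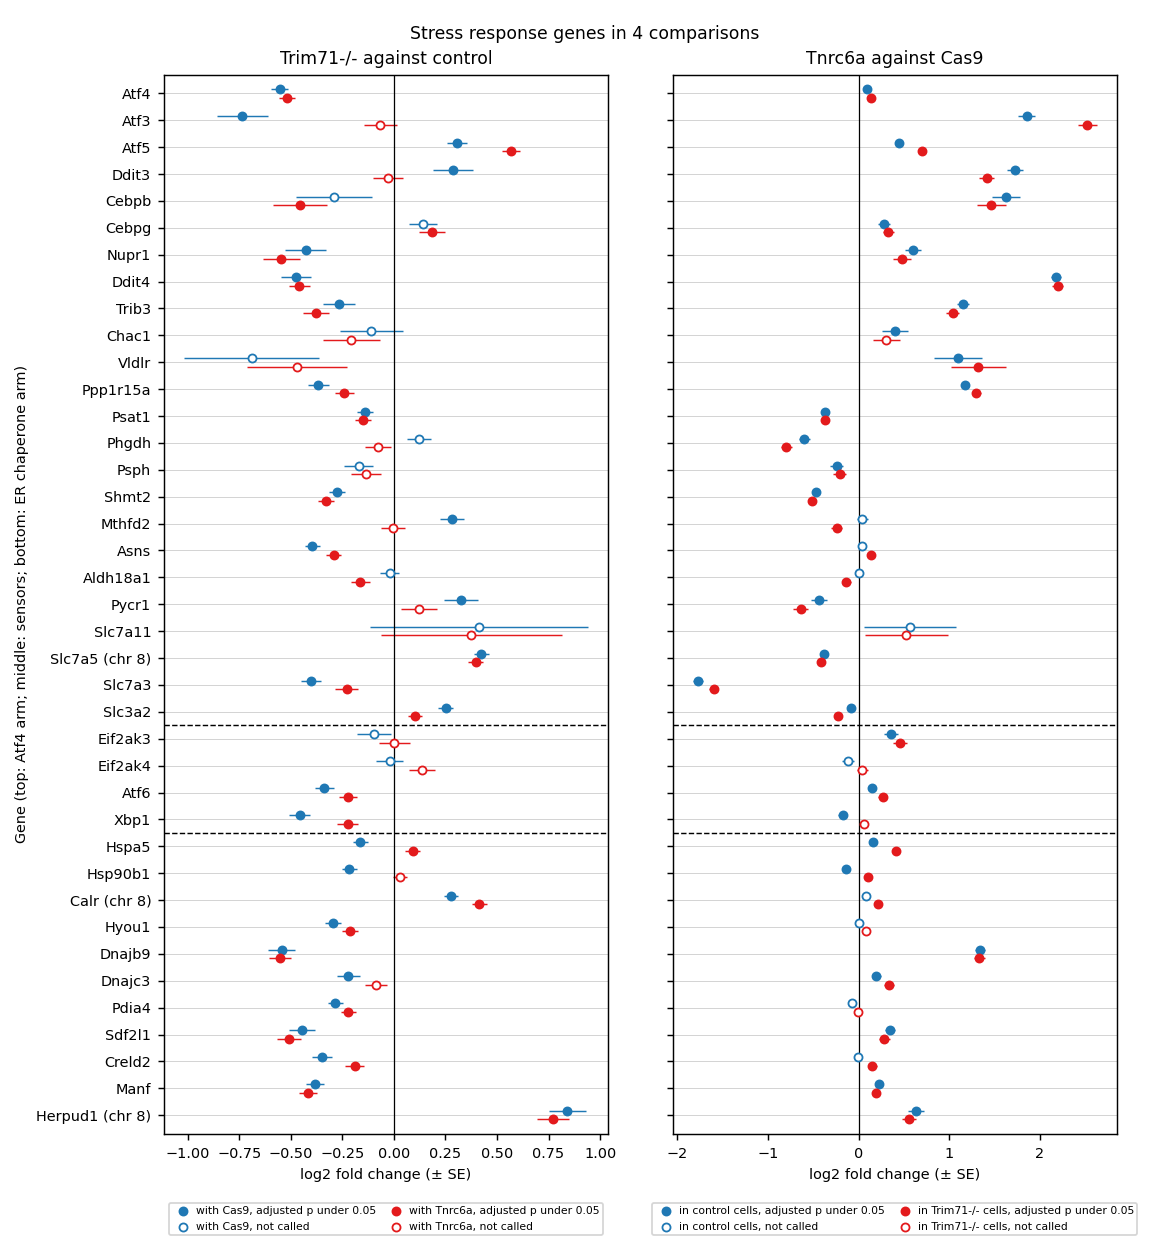
Log2 fold change with its standard error for each of the 39 genes (rows), for Trim71-/- against control (left) and Tnrc6a against Cas9 (right, on a wider axis). Filled points passed an edgeR adjusted p of 0.05; dashed lines separate the Atf4 arm, the sensors and the ER chaperone arm, in which most points lie left of 0 for Trim71-/-.

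Among the transcription factors, Atf4 (chr15:80255184-80257541, GRCm38) had 94.8, 90.5 and 87.8 RPKM in Cas9 control and 60.6, 62.0 and 63.4 in Cas9 Trim71-/- libraries. With Tnrc6a it had 98.3, 99.5 and 94.6 RPKM in control and 67.3, 70.8 and 65.9 in Trim71-/- libraries. The genotypes did not overlap with either construct. Atf4 fell 1.47-fold with Cas9 (log2 change -0.55 ± 0.04 SE, adjusted p = 2.35e-15 by edgeR) and 1.43-fold with Tnrc6a (-0.52 ± 0.04 SE, adjusted p = 9.65e-15 by edgeR). It was 1.07-fold higher with Tnrc6a in control cells (0.10 ± 0.04 SE, adjusted p = 0.0277 by edgeR), where the groups overlapped, and 1.10-fold in Trim71-/- cells (0.13 ± 0.04 SE, adjusted p = 0.00353 by edgeR). By edgeR, the call in control cells was lost without Cas9 control replicate 2 (adjusted p = 0.0703) or replicate 3 (0.162), and that in Trim71-/- cells without Tnrc6a Trim71-/- replicate 2 (0.0667).

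Atf3, a repressor induced by many stresses, had 2.42, 2.44 and 2.60 RPKM in Cas9 control, 1.46, 1.61 and 1.41 in Cas9 Trim71-/-, 9.46, 9.09 and 8.49 in Tnrc6a control and 8.58, 8.76 and 8.47 in Tnrc6a Trim71-/- libraries. It fell 1.66-fold in Trim71-/- libraries with Cas9 (log2 change -0.73 ± 0.12 SE, adjusted p = 5.85e-06 by edgeR), while with Tnrc6a the genotypes overlapped (-0.07, SE 0.08). With Tnrc6a it was 3.62-fold higher in control and 5.75-fold higher in Trim71-/- cells (log2 change 2.52 ± 0.10 SE, adjusted p = 3.52e-24 by edgeR). Ddit3 (Chop), which promotes death under lasting ER stress, had 7.53, 5.37 and 5.70 RPKM in Cas9 control and 20.8, 21.6 and 19.8 in Tnrc6a control libraries, a 3.32-fold difference (log2 change 1.73 ± 0.09 SE, adjusted p = 1.27e-20 by edgeR). In Trim71-/- libraries it had 7.24, 7.29 and 8.42 RPKM with Cas9 and 20.1, 19.3 and 21.5 with Tnrc6a. Its genotypes overlapped with both constructs, and the rise called with Cas9 (log2 fold change 0.29, edgeR adjusted p = 0.0186) was lost without Cas9 control replicate 2 (adjusted p = 0.133), Cas9 control replicate 3 (0.120) or Cas9 Trim71-/- replicate 3 (0.100).

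Cebpb, a C/EBP factor of inflammation and stress, was spread widely in Cas9 control libraries, at 2.78, 3.03 and 1.49 RPKM, against 7.74, 6.50 and 7.98 in Tnrc6a control, all higher. Its rise with Tnrc6a was 3.09-fold in control (log2 change 1.63 ± 0.15 SE, adjusted p = 1.47e-11 by edgeR) and 2.76-fold in Trim71-/- cells. In Trim71-/- libraries it fell 1.37-fold with Tnrc6a (-0.46 ± 0.13 SE, adjusted p = 0.00528 by edgeR) and was not called with Cas9 (-0.29), though it was without Cas9 control replicate 3 (adjusted p = 0.00698). Atf5, a relative of Atf4 whose translation responds to the same kinases, was the transcription factor that rose in both Trim71-/- comparisons. It went from 38.0 ± 2.23 to 47.0 ± 1.52 RPKM with Cas9 (log2 change 0.31 ± 0.05 SE, adjusted p = 9.18e-07 by edgeR) and from 51.7 ± 2.80 to 76.6 ± 1.46 with Tnrc6a (0.57 ± 0.04 SE, adjusted p = 2.66e-14 by edgeR). It was 1.36-fold and 1.63-fold higher with Tnrc6a in control and Trim71-/- cells. Nupr1, a small stress-induced chromatin protein, fell in Trim71-/- libraries by 0.43 (log2, SE 0.10) with Cas9 and 0.55 (SE 0.09) with Tnrc6a, and was 1.51-fold and 1.40-fold higher with Tnrc6a in the 2 genotypes. Cebpg, a dimer partner of Atf4, rose with Tnrc6a in both genotypes (log2 fold change 0.28 and 0.33). Its smaller rise in Trim71-/- libraries with Tnrc6a (0.19, edgeR adjusted p = 0.0161) was lost without Tnrc6a control replicate 1 (adjusted p = 0.235), without Tnrc6a Trim71-/- replicate 2 (0.127) and by DESeq2 (0.0581).

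Of 5 stress effectors, 5 rose with Tnrc6a in control cells and 4 in Trim71-/- cells (30.4% and 32.0% of all genes). In Trim71-/- libraries 3 fell with each construct (19.1% of all genes with Cas9 and 19.0% with Tnrc6a). Ddit4 (Redd1), an inhibitor of mTORC1 signalling, had 11.9, 11.3 and 10.7 RPKM in Cas9 control, 8.02, 7.44 and 8.95 in Cas9 Trim71-/-, 53.2, 50.1 and 50.1 in Tnrc6a control and 35.9, 37.2 and 38.5 in Tnrc6a Trim71-/- libraries. No 2 of the 4 groups overlapped. It was 4.53-fold and 4.58-fold higher with Tnrc6a (log2 change 2.18 ± 0.06 SE, adjusted p = 7.55e-31 by edgeR in control cells) and fell 1.39-fold and 1.37-fold in Trim71-/- libraries (-0.47 ± 0.07 SE, adjusted p = 5.44e-07 by edgeR with Cas9). Ppp1r15a (Gadd34), the phosphatase subunit that reverses eIF2 phosphorylation, showed the same order, at 16.9 ± 0.345, 13.1 ± 0.642, 38.0 ± 1.61 and 32.2 ± 1.24 RPKM. Trib3, a pseudokinase that restrains Atf4 and Akt, stood at 8.18 ± 0.110, 6.82 ± 0.438, 18.2 ± 1.10 and 14.0 ± 0.763 RPKM in that order. Both rose with Tnrc6a by 2.06-fold or more in each genotype, Ppp1r15a by 1.18 ± 0.05 SE, adjusted p = 2.13e-24 by edgeR and Trib3 by 1.15 ± 0.07 SE, adjusted p = 1.43e-18 by edgeR on the log2 scale in control cells. Both fell in Trim71-/- libraries, by 1.29-fold and 1.20-fold with Cas9 and by 1.18-fold and 1.30-fold with Tnrc6a.

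Chac1, which degrades glutathione, was low, at 2.33 to 3.30 RPKM in the group means. Its rise with Tnrc6a in control cells (log2 fold change 0.40, edgeR adjusted p = 0.0134) was lost without Cas9 control replicate 3 (adjusted p = 0.0723) or Tnrc6a control replicate 2 (0.0675). In Trim71-/- cells it was not called (0.31, adjusted p = 0.0684), but was without Tnrc6a Trim71-/- replicate 1 (0.0220) and with upper-quartile factors or the stricter filter (0.0452 and 0.0475). Vldlr, a lipoprotein receptor, was low, at 0.179, 0.0703 and 0.0690 RPKM in Cas9 control and 0.238, 0.218 and 0.244 in Tnrc6a control libraries, where it was 2.15-fold higher (log2 change 1.10 ± 0.27 SE, adjusted p = 0.000375 by edgeR). Without Cas9 control replicate 1, the highest of its group, that log2 change was 1.74. Between genotypes with Cas9 the Vldlr difference missed edgeR's threshold (-0.69, adjusted p = 0.0974) and rested on single libraries. It was -0.05 without Cas9 control replicate 1 (adjusted p = 0.933 by edgeR), and passed without Cas9 control replicate 2 (0.0430), Cas9 control replicate 3 (0.0281) or Cas9 Trim71-/- replicate 2 (0.0354); with Tnrc6a (-0.47) it passed in a fit of those 2 groups alone (0.0476).

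**Figure D2:**
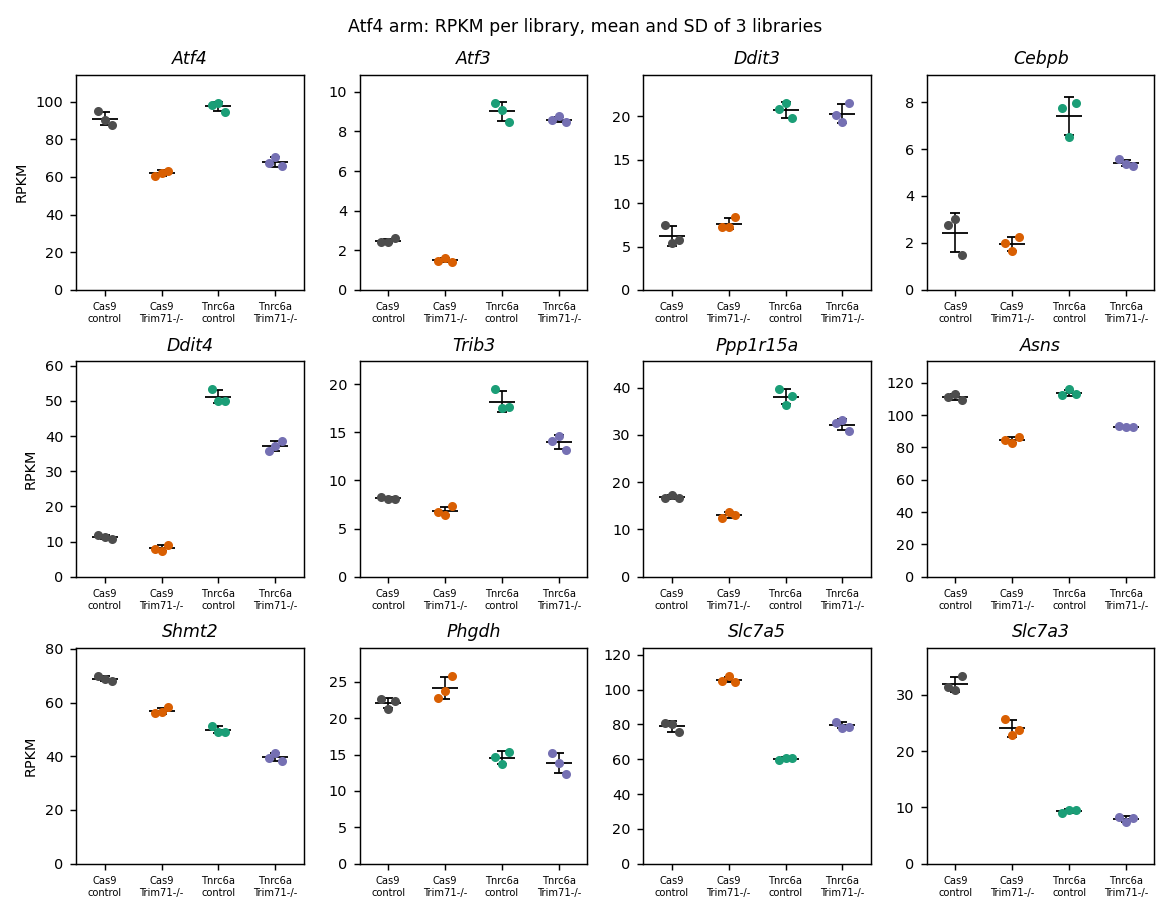
RPKM of 12 Atf4 arm genes in each of the 12 libraries (points), with the mean and SD of 3 libraries per group; each panel starts at 0. Atf3, Ddit3, Ddit4, Trib3 and Ppp1r15a are higher with Tnrc6a than in the Cas9 group of the same genotype, whereas Shmt2, Phgdh, Slc7a5 and Slc7a3 are lower.

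Of 5 serine and one-carbon enzymes, 4 fell with Tnrc6a in control cells and 5 in Trim71-/- cells (33.1% and 30.9% of all genes). Shmt2, the mitochondrial serine hydroxymethyltransferase, had 69.8, 68.8 and 68.2 RPKM in Cas9 control, 56.2, 56.5 and 58.2 in Cas9 Trim71-/-, 51.3, 49.1 and 49.2 in Tnrc6a control and 39.5, 41.3 and 38.4 in Tnrc6a Trim71-/- libraries. It was lower with Tnrc6a in both genotypes (log2 change -0.47 ± 0.04 SE, adjusted p = 3.70e-14 by edgeR in control cells) and lower in Trim71-/- libraries with both constructs (-0.28 and -0.33). Psat1, the aminotransferase of serine synthesis, fell in the same 4 comparisons, from 52.3 ± 1.12 RPKM in Cas9 control to 36.5 ± 0.978 in Tnrc6a Trim71-/- libraries. Phgdh, the first enzyme of that pathway, was 1.52-fold lower with Tnrc6a in control cells (log2 change -0.60 ± 0.06 SE, adjusted p = 2.32e-11 by edgeR) and 1.74-fold lower in Trim71-/- cells, and was called in neither genotype comparison (0.12 and -0.08).

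Psph, the phosphatase that ends serine synthesis, fell with Tnrc6a in control (-0.24, edgeR adjusted p = 0.00248) and Trim71-/- cells (-0.21, adjusted p = 0.0114). By edgeR, these calls were lost without Tnrc6a control replicate 1 (adjusted p = 0.0503) and without Cas9 Trim71-/- replicate 3 (0.0703). Its genotype differences missed the threshold (-0.17 and -0.13); the first passed without Cas9 Trim71-/- replicate 3 (0.0206), with upper-quartile factors (0.0415) and by limma-voom (0.0463), the second without Tnrc6a control replicate 1 (0.0368). Mthfd2, a mitochondrial folate enzyme, rose in Trim71-/- libraries with Cas9, from 12.2, 11.6 and 10.9 to 13.2, 15.1 and 14.1 RPKM (log2 change 0.28 ± 0.06 SE, adjusted p = 0.000151 by edgeR), and overlapped between genotypes with Tnrc6a. Between constructs it overlapped in control cells (0.04) and fell with Tnrc6a in Trim71-/- cells (-0.24 ± 0.06 SE, adjusted p = 0.000354 by edgeR).

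Asns, which makes asparagine and is a standard readout of Atf4, had 111, 113 and 109 RPKM in Cas9 control and 84.6, 82.6 and 86.3 in Cas9 Trim71-/- libraries. With Tnrc6a it had 112, 116 and 113 RPKM in control and 93.5, 92.5 and 92.8 in Trim71-/- libraries. The genotypes did not overlap, and Asns fell 1.32-fold with Cas9 (log2 change -0.40 ± 0.04 SE, adjusted p = 1.59e-12 by edgeR) and 1.22-fold with Tnrc6a (-0.29 ± 0.04 SE, adjusted p = 3.56e-09 by edgeR). Unlike the effectors, it overlapped between Tnrc6a and Cas9 in control cells (0.03, edgeR adjusted p = 0.415, and 0.0352 by DESeq2) and was 1.10-fold higher in Trim71-/- cells (0.14 ± 0.04 SE, adjusted p = 0.000901 by edgeR). Of the proline enzymes, Pycr1 rose in Trim71-/- libraries with Cas9 (log2 change 0.32 ± 0.08 SE, adjusted p = 0.00170 by edgeR) and fell with Tnrc6a in both genotypes (-0.44 and -0.64). Aldh18a1 changed by -0.16 in Trim71-/- libraries with Tnrc6a (edgeR adjusted p = 0.00412) and by -0.14 with Tnrc6a in Trim71-/- cells (0.0110); the second call was lost without Cas9 Trim71-/- replicate 1 (0.0503) or Tnrc6a Trim71-/- replicate 3 (0.0511).

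Of the transporters, Slc7a3, which takes up cationic amino acids, had 31.5, 30.8 and 33.3 RPKM in Cas9 control and 8.92, 9.45 and 9.57 in Tnrc6a control libraries. In Trim71-/- libraries it had 25.8, 22.8 and 23.7 RPKM with Cas9 and 8.30, 7.39 and 8.14 with Tnrc6a. It was 3.42-fold lower with Tnrc6a in control cells (log2 change -1.78 ± 0.05 SE, adjusted p = 1.69e-29 by edgeR), the largest fall of any member, and 3.04-fold lower in Trim71-/- cells. In Trim71-/- libraries it fell with both constructs (-0.40 and -0.23). Slc7a5 and Slc3a2, the light and heavy chains of one large neutral amino acid transporter, rose in Trim71-/- libraries and fell with Tnrc6a. Slc7a5 went from 78.8 ± 2.93 to 106 ± 1.63 RPKM with Cas9 (log2 change 0.42 ± 0.04 SE, adjusted p = 3.27e-13 by edgeR), and it lies on chromosome 8, described below. Its log2 change was 0.40 in Trim71-/- libraries with Tnrc6a, and -0.38 and -0.41 for Tnrc6a in control and Trim71-/- cells. Slc3a2, on chromosome 19, went from 72.0 ± 1.04 to 85.7 ± 2.08 RPKM (0.25 ± 0.04 SE, adjusted p = 2.12e-07 by edgeR). Its rise with Tnrc6a (0.10, edgeR adjusted p = 0.0195) was lost in 8 alternative settings, among them each library of those groups left out in turn (0.0552 to 0.131). The Slc3a2 fall with Tnrc6a in control cells (-0.08, adjusted p = 0.0465) was lost in 13, including each of the 6 libraries compared (0.0502 to 0.210). Slc7a11, which imports cystine, was at 0.0187 to 0.0366 RPKM in the group means, with a lowest count of 3, and was called in no comparison.

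Among the sensors, Xbp1 and Atf6 fell in Trim71-/- libraries with both constructs, and Eif2ak3 and Atf6 rose with Tnrc6a. Xbp1, whose spliced form drives ER genes, had 18.7, 19.1 and 19.7 RPKM in Cas9 control and 13.8, 14.7 and 13.4 in Cas9 Trim71-/- libraries, a 1.37-fold fall with no overlap (log2 change -0.46 ± 0.05 SE, adjusted p = 1.02e-09 by edgeR). With Tnrc6a it had 17.1, 16.5 and 17.2 RPKM in control and 14.8, 13.7 and 15.0 in Trim71-/- libraries (-0.22 ± 0.05 SE, adjusted p = 0.000423 by edgeR). It was lower with Tnrc6a in control cells (-0.18 ± 0.05 SE, adjusted p = 0.00247 by edgeR) and it overlapped in Trim71-/- cells (0.06). Atf6, the ER-bound factor, fell in Trim71-/- libraries with both constructs (-0.34 and -0.22) and rose with Tnrc6a in both genotypes (0.15 and 0.27). Eif2ak3, the ER-resident eIF2 kinase, went from 3.16, 2.79 and 3.16 RPKM in Cas9 control to 3.57, 3.99 and 4.16 in Tnrc6a control libraries (log2 change 0.36 ± 0.08 SE, adjusted p = 0.000100 by edgeR) and overlapped between genotypes. Eif2ak4, the eIF2 kinase that senses uncharged tRNA, lay between 4.27 and 4.69 RPKM in the group means and was called by edgeR in no comparison, though without Tnrc6a control replicate 3 it passed for Trim71-/- with Tnrc6a (log2 0.19, adjusted p = 0.0323) and for Tnrc6a in control cells (-0.16, 0.0394).

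In the ER arm, Hspa5 (BiP), the main Hsp70 chaperone of the ER, had 219, 207 and 224 RPKM in Cas9 control and 185, 197 and 198 in Cas9 Trim71-/- libraries. With Tnrc6a it had 249.6, 232 and 245 RPKM in control and 253, 266 and 254 in Trim71-/- libraries, and no genotype groups overlapped. It fell 1.12-fold in Trim71-/- libraries with Cas9 (log2 change -0.16 ± 0.04 SE, adjusted p = 0.000444 by edgeR), rose 1.12-fold with Tnrc6a in control cells (0.16 ± 0.04 SE, adjusted p = 0.000195 by edgeR) and was 1.33-fold higher with Tnrc6a in Trim71-/- cells (0.42 ± 0.04 SE, adjusted p = 4.11e-13 by edgeR). Its small rise in Trim71-/- libraries with Tnrc6a (0.09, adjusted p = 0.0471) was lost in 11 alternative settings, including each of the 6 libraries left out (0.0569 to 0.575), with relative log expression factors (0.187) and by DESeq2 (0.238). Hsp90b1 (Grp94), the ER Hsp90, went from 233 ± 8.15 to 201 ± 4.17 RPKM in Trim71-/- libraries with Cas9 (-0.22 ± 0.04 SE, adjusted p = 3.78e-06 by edgeR) and overlapped between genotypes with Tnrc6a. With Tnrc6a it fell in control cells (-0.14, edgeR adjusted p = 0.000807) and rose in Trim71-/- cells (0.11, adjusted p = 0.00916); these were lost without Tnrc6a control replicate 2 (0.0501) and without Tnrc6a Trim71-/- replicate 2 (0.179). Hyou1 (Grp170), a nucleotide exchange factor for BiP, fell in Trim71-/- libraries with both constructs (-0.30 and -0.21). Its difference with Tnrc6a in Trim71-/- cells (0.08, adjusted p = 0.0592) missed the threshold, and passed without Cas9 Trim71-/- replicate 3 (0.0230) and in 4 other alternatives (0.00992 to 0.0267).

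All 6 cochaperones and folding enzymes fell in Trim71-/- libraries with Cas9, and 5 of 6 with Tnrc6a (19.1% and 19.0% of all genes). Dnajc3 was not called with Tnrc6a (-0.09). Dnajb9 (ERdj4), a BiP cochaperone, had 9.74, 9.40 and 9.90 RPKM in Cas9 control, 6.51, 6.92 and 6.52 in Cas9 Trim71-/-, 24.7, 24.2 and 24.8 in Tnrc6a control and 16.2, 17.8 and 16.3 in Tnrc6a Trim71-/- libraries. No 2 groups overlapped. It fell 1.46-fold and 1.47-fold in Trim71-/- libraries (log2 change -0.54 ± 0.07 SE, adjusted p = 4.44e-09 by edgeR with Cas9) and was 2.53-fold and 2.52-fold higher with Tnrc6a (1.34 ± 0.06 SE, adjusted p = 1.01e-23 by edgeR in control cells), the largest rise of the ER arm. Sdf2l1, which acts in the BiP cycle, stood at 29.9 ± 0.840, 21.9 ± 0.929, 37.9 ± 1.63 and 26.6 ± 1.51 RPKM in the same order of groups. Manf, a secreted ER stress protein, stood at 38.1 ± 1.41, 29.2 ± 1.38, 44.4 ± 1.49 and 33.3 ± 0.595 RPKM. Both were called in all 4 comparisons, lower in Trim71-/- libraries and higher with Tnrc6a; with Cas9 the Trim71-/- log2 changes were -0.45 ± 0.06 SE, adjusted p = 2.02e-07 by edgeR for Sdf2l1 and -0.38 ± 0.04 SE, adjusted p = 6.87e-10 by edgeR for Manf.

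Pdia4, a protein disulfide isomerase, fell in Trim71-/- libraries (log2 -0.28 with Cas9 and -0.22 with Tnrc6a) and was not called between Tnrc6a and Cas9 (-0.07 and -0.01). Creld2, an ER stress-induced isomerase-like protein, fell in Trim71-/- libraries with both constructs (-0.35 and -0.19). It was higher with Tnrc6a in Trim71-/- cells (0.15, edgeR adjusted p = 0.00619), where groups overlapped and the call was lost without Cas9 Trim71-/- replicate 1 (0.111). Dnajc3 (p58IPK), which binds unfolded proteins and restrains eIF2 kinases, fell in Trim71-/- libraries with Cas9 (log2 change -0.22 ± 0.06 SE, adjusted p = 0.00130 by edgeR) and rose with Tnrc6a in both genotypes (0.20 and 0.33).

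**Figure D3:**
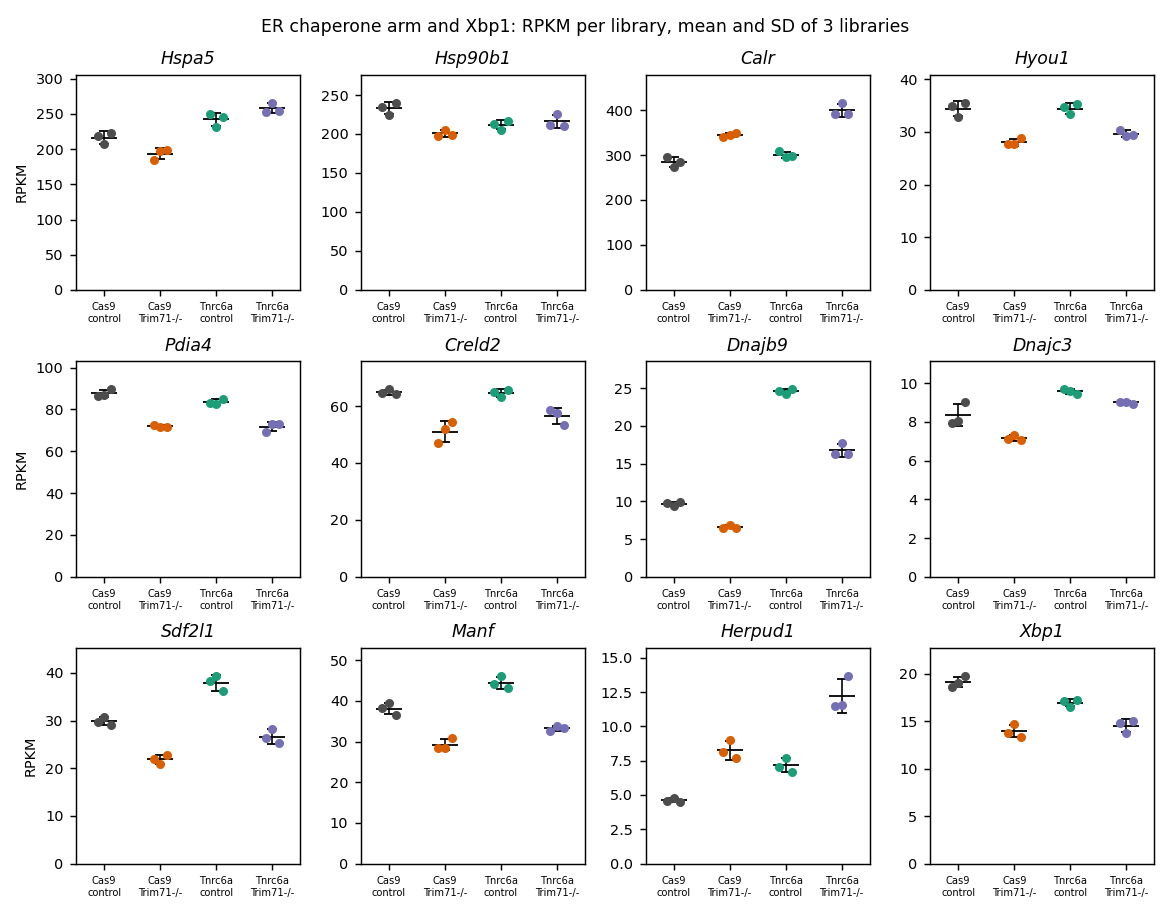
RPKM of the 11 ER chaperone arm genes and Xbp1 in each of the 12 libraries (points), with the mean and SD of 3 libraries per group; each panel starts at 0. All but Calr and Herpud1 are lower in Cas9 Trim71-/- than in Cas9 control libraries, Dnajb9 is higher in both Tnrc6a groups, and Calr and Herpud1 are higher in Trim71-/- libraries.

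The ER arm genes that rose in Trim71-/- libraries with both constructs lie on chromosome 8, as does Slc7a5. For its 664 genes whose mean reached 5 CPM (counts scaled to library size), the median log2 change was 0.49 with Cas9 and 0.52 with Tnrc6a, against -0.01 and 0.00 on other chromosomes. Calr, a calcium-binding lectin chaperone, had 295, 274 and 284 RPKM in Cas9 control and 341, 344 and 348 in Cas9 Trim71-/- libraries (log2 change 0.28 ± 0.04 SE, adjusted p = 1.62e-08 by edgeR); with Tnrc6a its log2 change was 0.41 ± 0.04 SE. Herpud1, a membrane protein of ER-associated degradation, had 4.56, 4.81 and 4.52 RPKM in Cas9 control and 8.10, 9.04 and 7.68 in Cas9 Trim71-/- libraries, a 1.79-fold rise with no overlap (log2 change 0.84 ± 0.09 SE, adjusted p = 1.42e-10 by edgeR). With Tnrc6a it had 7.03, 7.71 and 6.71 RPKM in control and 11.5, 11.5 and 13.6 in Trim71-/- libraries (0.77 ± 0.08 SE, adjusted p = 3.99e-11 by edgeR).

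Relative to the chromosome 8 median, Calr was at -0.22 with Cas9 and -0.10 with Tnrc6a, and Slc7a5 at -0.070 and -0.12, so their direction turned. Herpud1 stayed above it by 0.35 and 0.26; 93.7% and 89.2% of those 664 genes lay below it. A shift of the whole chromosome and a change of these genes themselves cannot be told apart for Calr and Slc7a5. For Herpud1, which lay within the spread of the chromosome 8 genes, this was not tested. Without the 3 chromosome 8 genes, 0 of 9 ER arm genes rose in Trim71-/- libraries with Cas9 (17.1% of all genes). Between Tnrc6a and Cas9 the chromosome 8 median was -0.08 in control and -0.03 in Trim71-/- cells; there Herpud1 rose 1.55-fold and 1.47-fold, and Calr rose in Trim71-/- cells (0.22). In control cells Calr missed the threshold (0.08, edgeR adjusted p = 0.0508) but passed in 9 alternative settings, including without Cas9 control replicate 1 (0.0215) or Tnrc6a control replicate 2 (0.0132).

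**Figure D4:**
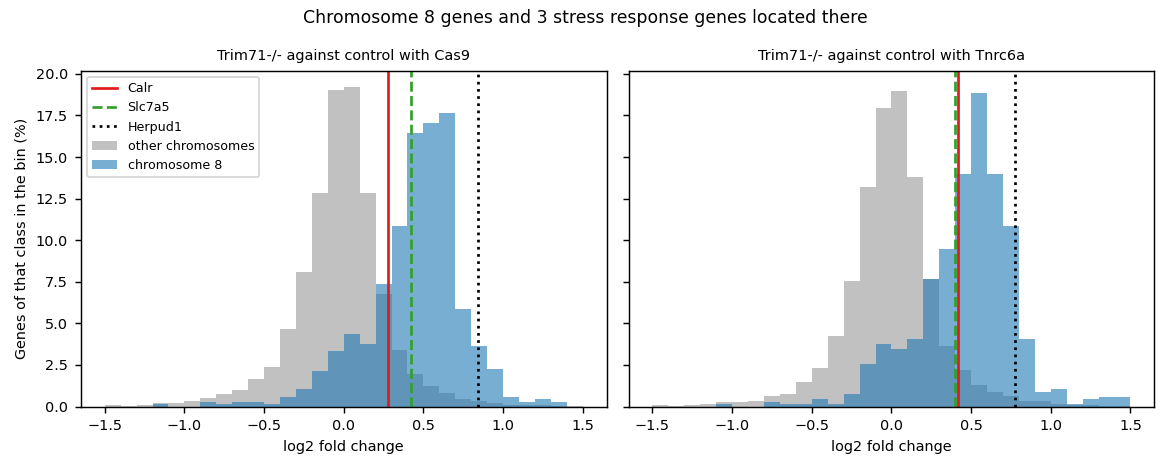
Share of genes per 0.1 bin of log2 fold change, for 664 chromosome 8 genes and for genes of other chromosomes, all reaching a mean of 5 CPM, in Trim71-/- against control with Cas9 (left) and Tnrc6a (right). Lines mark Calr, Slc7a5 and Herpud1. The chromosome 8 genes centre at 0.49 and 0.52, and Herpud1 lies right of these centres, within the spread of those genes.

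Whether the Trim71-/- difference depended on the construct was tested as an interaction, the log2 fold change with Tnrc6a minus that with Cas9. Of 39 members, 5 were called higher and 1 lower, against 4.68% and 2.25% of all genes (6.93% in either direction). At 1.5-fold or more, 1 was higher, Atf3, and 0 lower, against 1.42% and 0.727%. Over all genes the split of calls, 958 higher and 461 lower, became 768 and 613 with relative log expression factors and 710 and 573 by DESeq2. It became 548 and 511 without Tnrc6a control replicate 1, 543 and 519 without Tnrc6a control replicate 2, and 584 and 521 without Tnrc6a Trim71-/- replicate 2. Across the left-out libraries, 4 to 5 members were higher and 0 to 2 lower. Atf3 had the largest value (0.67 ± 0.15 SE, adjusted p = 0.00225 by edgeR); it fell with Cas9 and was not called with Tnrc6a. Hspa5 had an interaction of 0.25 ± 0.05 SE, adjusted p = 0.000986 by edgeR, and Hsp90b1 of 0.25 ± 0.05 SE, adjusted p = 0.000989 by edgeR. Both fell with Cas9, while with Tnrc6a the log2 changes were 0.09 and 0.03. Atf5 rose more with Tnrc6a (0.26 ± 0.06 SE, adjusted p = 0.00709 by edgeR).

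Weaker interaction calls were those of Xbp1 (0.23, edgeR adjusted p = 0.0427) and Mthfd2 (-0.28, adjusted p = 0.0265). The Xbp1 call was lost in 13 alternative settings, among them 9 of the 12 left-out libraries, with adjusted p up to 0.232 without Tnrc6a control replicate 2. The libraries without which it held were Cas9 control replicate 1, Cas9 Trim71-/- replicate 2 and Tnrc6a control replicate 3. The Mthfd2 call was lost without Cas9 control replicate 3 (0.104), Cas9 Trim71-/- replicate 2 (0.0994), Tnrc6a Trim71-/- replicate 1 (0.0671) or replicate 3 (0.0616). Conversely, Slc3a2 (-0.15, adjusted p = 0.0693) passed without Tnrc6a control replicate 1 (0.0440) or 2 (0.0446), Creld2 (0.16) without Cas9 Trim71-/- replicate 3 (0.0477) and Ddit3 (-0.31) without Cas9 control replicate 1 (0.00801). The other 33 members, among them Atf4 (0.04, SE 0.06), Asns (0.10, SE 0.05) and Dnajb9 (-0.01, SE 0.09), were not called, which does not show that their differences were equal.

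**Figure D5:**
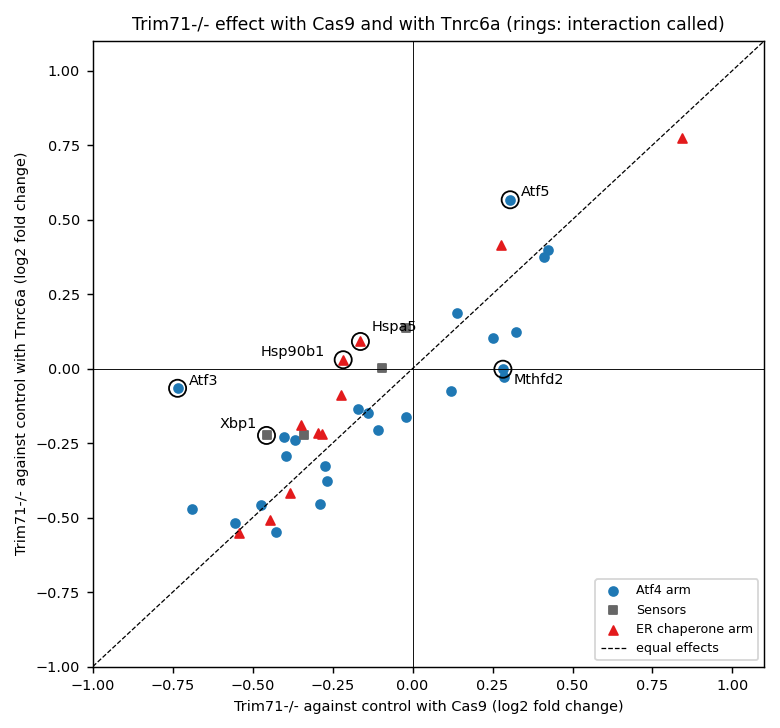
Log2 fold change of Trim71-/- against control with Cas9 (x axis) and with Tnrc6a (y axis) for the 39 genes; the dashed line marks equal values and rings mark the 6 genes with an interaction call. Atf3 lies farthest above the line, and Mthfd2 lies below it.

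Other genes of these pathways, from lists drawn up for this work, were counted in the same fits. Of 140 such genes tested, 52 fell and 24 rose in Trim71-/- libraries with Cas9, and 47 fell and 31 rose with Tnrc6a (19.1% lower and 17.1% higher, then 19.0% and 20.0%, of all genes), with 7 of those that rose on chromosome 8 in each. Of 23 tested further Atf4 target genes, 8 fell and 4 rose in Trim71-/- libraries with Cas9, and 12 fell and 5 rose with Tnrc6a, against 19.1% and 17.1%, and 19.0% and 20.0%, of all genes. Slc1a4, a neutral amino acid transporter, fell most (mean 3.70 to 1.99 RPKM with Cas9; log2 change -0.89 ± 0.09 SE, adjusted p = 4.95e-11 by edgeR), and Gdf15, a stress-induced cytokine gene on chromosome 8, rose 2.04-fold. With Tnrc6a, 13 rose and 8 fell in control cells (30.4% and 33.1% of all genes), with Tsc22d3 highest (log2 change 1.40 ± 0.15 SE, adjusted p = 1.15e-10 by edgeR) and Mthfd1l lowest (log2 change -0.73 ± 0.05 SE, adjusted p = 4.14e-18 by edgeR). Of 18 aminoacyl-tRNA synthetases, which charge tRNAs, 14 fell with Tnrc6a in each genotype (33.1% and 30.9% of all genes), Vars most (log2 change -0.59 ± 0.04 SE, adjusted p = 8.65e-17 by edgeR in control cells), while 6 of 18 fell in Trim71-/- libraries with each construct (19.1% and 19.0% of all genes). A further list held 15 genes of eIF2 subunits, eIF2 kinases, phosphatase, exchange factor and related factors. Of these, 7 fell and 1 rose with Tnrc6a in control cells, against 33.1% and 30.4% of all genes. With Cas9, 5 of the 15 fell and 3 rose in Trim71-/- libraries (19.1% and 17.1%), and with Tnrc6a 4 fell and 4 rose (19.0% and 20.0%).

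Of 21 other ER chaperones and folding enzymes, 12 fell and 2 rose in Trim71-/- libraries with Cas9 (19.1% and 17.1% of all genes), and 6 fell and 3 rose with Tnrc6a (19.0% and 20.0%), where the list's median log2 change was -0.0085. Serpinh1 (Hsp47), the collagen chaperone, had means of 29.9 and 10.6 RPKM in Cas9 control and Cas9 Trim71-/- libraries (log2 change -1.49 ± 0.05 SE, adjusted p = 6.62e-26 by edgeR), and was 2.60-fold higher with Tnrc6a in control cells. Endoderm markers, summed above, differed in the same directions as Serpinh1 in these comparisons, and their part was not tested. Of 25 genes of ER-associated degradation and export, 13 rose with Tnrc6a in each genotype (30.4% and 32.0% of all genes), with 7 and 3 lower (33.1% and 30.9%). With Cas9, 7 of the 25 fell and 4 rose in Trim71-/- libraries, against 19.1% and 17.1% of all genes. Of 14 tested further regulators of the unfolded protein response, 8 rose and 5 fell with Tnrc6a in each genotype (30.4% and 33.1%, then 32.0% and 30.9%, of all genes); Creb3, a membrane-bound factor, rose 2.93-fold in control cells (log2 change 1.55 ± 0.08 SE, adjusted p = 1.07e-21 by edgeR). In Trim71-/- libraries with Cas9, 9 of the 14 fell and 1 rose (19.1% and 17.1% of all genes), the latter being Mbtps1, the protease that cleaves Atf6, on chromosome 8.

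Chaperones of other compartments showed other counts. Of 13 cytosolic heat shock genes, 9 rose and 3 fell with Tnrc6a in each genotype (30.4% and 33.1%, then 32.0% and 30.9%, of all genes), and Hspa1a, the inducible Hsp70, rose 10.6-fold in control cells, from a mean of 5.04 to 52.9 RPKM (log2 change 3.41 ± 0.08 SE, adjusted p = 1.73e-18 by edgeR). With Cas9, 5 of the 13 fell and 3 rose in Trim71-/- libraries (19.1% and 17.1% of all genes), Hspa1b lowest (log2 change -0.76 ± 0.08 SE, adjusted p = 2.72e-09 by edgeR). Of 11 mitochondrial chaperones and proteases, 8 fell and 1 rose with Tnrc6a in each genotype (33.1% and 30.4%, then 30.9% and 32.0%, of all genes), Hspd1 most in control cells (log2 change -0.56 ± 0.04 SE, adjusted p = 1.00e-17 by edgeR), whereas 0 fell and 4 rose in Trim71-/- libraries with Cas9 and 0 and 3 with Tnrc6a (19.1% lower and 17.1% higher, then 19.0% and 20.0%, of all genes).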

How the data were processed

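RNA-seq of 12 libraries, 3 for each of 4 groups, was analysed from the deposited table, which holds raw counts and RPKM per gene. The counts are the authors' whole-number counts per gene; per the submitters' processing notes, bcl2fastq 2.20 and STAR 2.7.3a were used with builds GRCm38 and mm10, while for counting the tool, strand setting and annotation were not given in the sources used here. RPKM values are as deposited by the authors, scaled by library size and by the deposited gene length, and served for levels only. Set against the counts, they also carry a library factor close to the TMM factor. The TMM factors were 0.934 to 0.953 in Cas9 and 1.04 to 1.08 in Tnrc6a libraries. RPKM levels are therefore not independent of that normalization. The extract protocol names a stranded total RNA kit. Library totals ranged from 20758151 to 31552915 counts, and 0 columns belonged to other samples.

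Counts were fitted with edgeR 4.0.16 (R 4.3.3): filterByExpr, TMM factors, 1 mean per group over all 12 libraries, robust quasi-likelihood tests, and Benjamini-Hochberg adjustment over 20486 genes with a threshold of 0.05. All 12 libraries share 1 estimate of the spread. The fitting step was run on simulated counts in which a small set of genes differed, in the Cas9 Trim71-/- group only. Far fewer genes differed there than were called in these data, so that run does not test the normalization between constructs. Alternatives were other normalization factors, other filters, limma-voom (limma 3.58.1), DESeq2 1.42.0, the replicate number as a block, fits of the compared groups alone, leaving out chromosome 8, a 1.5-fold minimum and leaving out each library. Replicates of a group differed by more than counting noise, so none were merged. The 2 Trim71-/- comparisons share no library, nor do the 2 Tnrc6a comparisons, but each of the former shares groups with each of the latter. Members, gene lists and tests were chosen with earlier results of these data known. All members are reported; of each other pathway list, the text takes named genes from the called gene with the largest log2 change in each direction. Chromosome positions and exon overlaps of members come from the GENCODE M21 annotation (GRCm38).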

Additional observations from a re-analysis of the deposited data

Results flagged for a closer look

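In 6 genes the Trim71-/- difference was called as depending on the construct by edgeR's interaction term, given as log2 fold change with Tnrc6a minus that with Cas9. Atf3 had 0.67, Atf5 0.26, Hspa5 0.25, Hsp90b1 0.25, Xbp1 0.23 and Mthfd2 -0.28. Of these, the calls of Atf3, Atf5, Hspa5 and Hsp90b1 held without each of the 12 libraries in turn, and those of Xbp1 and Mthfd2 did not.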

How the results depend on the processing

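Across alternatives other than a fold minimum, no member changed direction while called. Of 580 alternative values for Trim71-/- with Cas9, 570 kept the call, 3 lost and 7 gained one. With Tnrc6a these were 581, 556, 22 and 3, for Tnrc6a in control cells 581, 551, 19 and 11, in Trim71-/- cells 581, 567, 6 and 8, and for the interaction 775, 750, 17 and 8. Against the chromosome 8 median, Slc7a5 turned to -0.070 with Cas9 and -0.12 with Tnrc6a, and Calr to -0.22 and -0.10.

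A 1.5-fold minimum cut the called genes of the Atf4 arm, sensors and ER arm from 16, 2 and 11 to 1, 0 and 1 (Trim71-/- with Cas9), from 15, 2 and 9 to 0, 0 and 1 (with Tnrc6a), from 20, 3 and 7 to 10, 0 and 2 (Tnrc6a in control cells), from 22, 2 and 9 to 11, 0 and 1 (in Trim71-/- cells) and from 3, 1 and 2 to 1, 0 and 0 (interaction). The sensor interaction call, Xbp1, went from 1 to 0 with relative log expression factors, limma-voom, DESeq2 and the replicate block, and ranged from 0 to 1 without 1 library. Without 1 library the interaction calls ranged from 2 to 4 in the Atf4 arm and from 2 to 3 in the ER arm. Those for Tnrc6a ranged from 17 to 19 (control) and 21 to 23 (Trim71-/-) in the Atf4 arm, 7 to 8 and 8 to 10 in the ER arm.

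Same-numbered replicates did not deviate together (18 pairs, r from -0.05 to 0.02), so the main fits did not pair libraries by number. These values do not show how the wells were handled. With the replicate block, the ER arm calls for Trim71-/- with Tnrc6a went from 9 to 8, the Atf4 arm calls for Tnrc6a in control cells from 20 to 19, and the sensor interaction from 1 to 0, with no other arm count moved. Depth limits Slc7a11 (lowest count 3).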
